A study of Mus musculus with 8 samples.

Results

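The Kruppel-like factors described here were Klf2, Klf3, Klf4, Klf5, Klf6, Klf7, Klf9, Klf10, Klf13 and Klf15, measured in C2C12 cells on Illumina MouseRef-8 v2.0 expression BeadChips. A probe counted as a member when the array annotation gave it one of these 10 symbols, and each gene had 1 such probe, so that 10 of 16502 named genes on the array, and 10 of its 18138 probes, were members. C2C12 is a mouse myoblast line that becomes osteoblast-like under bone morphogenetic protein 2 (BMP-2). Dynasore blocks the GTPase dynamin, which pinches endocytic vesicles off the membrane. Serum was withdrawn 4 h before stimulation, dynasore (40 µM) or its solvent DMSO (0.05%) was added 2 h into that time, and the cells then spent 6 h with or without 30 nM BMP-2, still without serum and with the compound or solvent kept on. The 4 groups were BMP-2+Dynasore, Dynasore, BMP-2+DMSO and DMSO, with 2 arrays each. The questions were what dynasore did to the factors without and with BMP-2, what BMP-2 did to them with and without dynasore, and whether the response to BMP-2 depended on dynasore.

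Kruppel-like factors are transcription factors that bind GC boxes and CACCC elements through a run of zinc fingers at the C-terminus, which they share with the Sp factors. Outside the fingers the members differ, and with it the partners they recruit, so that Klf2, Klf4, Klf5, Klf6 and Klf7 mostly activate, Klf3 represses through C-terminal binding proteins, and Klf9, Klf10 and Klf13 repress through the Sin3 complex. Many of them are early response genes. In muscle, Klf2 and Klf4 lie downstream of the kinase ERK5 and of MEF2 in myoblast fusion, Klf3 binds muscle promoters with the serum response factor, Klf5 acts beside MyoD during differentiation, and Klf15 controls metabolism in mature fibres.

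All 10 member probes were among the 10232 probes tested, which had to exceed background on 2 or more arrays. The probes of 8 members were above background on all 8 arrays, that of Klf4 on 7 and that of Klf15 on 4. Values are log2 signals, made from the intensities the authors normalized, and are compared for 1 probe between arrays and never between probes, since probes differ in brightness. A probe was called at a Benjamini-Hochberg adjusted p under 0.05 in limma over all tested probes. The methods call the duplicates biological and say no more of how they were separated, so the p-values measure the spread between these arrays. In bulk RNA, fewer cells with a transcript and less transcript per cell cannot be told apart. Of the myoblast markers Des and Vcam1 were above background on all 8 arrays, Myod1 on 7 and Myf5 on none. Msc was not above background on either BMP-2+DMSO array. The 4 endothelial markers were above background on none. Of the epithelial markers Krt8 was above background on 2 or more arrays and Cdh1 on none. No leukocyte marker was above background on 2 or more arrays.

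BMP-2+DMSO replicate 2 stood apart from the other 7 arrays. Its background mode was 242 intensity units, and 7423 probes were above background on it, against 8846 to 9468 on the others. The next highest mode was 45.3, on BMP-2+Dynasore replicate 2, and the rest had -1.21 to 14.2. That array is 1 of the 2 that carry every BMP-2+Dynasore comparison. The log2 signals of the BMP-2+DMSO duplicates correlated at r = 0.777 over the tested probes, and those of the other groups' duplicates at 0.979 to 0.995. The methods left 1 of the BMP-2+DMSO arrays out of the significance test for high variation, without naming it. The comparisons among BMP-2+Dynasore, Dynasore and DMSO were therefore fitted on the 6 arrays of those groups, and the comparisons that use BMP-2+DMSO on all 8 arrays, with values for each of its arrays alone beside them. The response to BMP-2 itself was present: Id3, a direct BMP target, had log2 signals of 11.86 and 11.85 in BMP-2+DMSO cells and 8.30 and 8.44 in DMSO cells, and 11.35 and 11.28 in BMP-2+Dynasore cells against 8.34 and 8.41 in Dynasore cells. In limma over all 8 arrays, Id3 was called in BMP-2+DMSO against DMSO (change 3.48, adjusted p = 0.0039). Id1 (2.60, adjusted p = 0.065) and Id2 (2.21, adjusted p = 0.063) were not called there.

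The promoters of the 3 factors with the largest rises among those in the RefSeq promoter table used here (Klf4, Klf9, Klf6) and of Klf13, the member that differed between BMP-2+Dynasore and Dynasore, are shown because the family binds elements of the kind found in them. Each run covers 250 bases before to 50 after the annotated start (RefSeq, GRCm38.p6) in the gene's direction, with capitals at every GC box (GGGCGG) and CACCC element (CACCC) on either strand. Klf4 lies at chr4:55532426-55532725 on the minus strand, Klf9 at chr19:23140976-23141275 on the plus strand, Klf6 at chr13:5861239-5861538 on the plus strand and Klf13 at chr7:63938866-63939165 on the minus strand.
Klf4: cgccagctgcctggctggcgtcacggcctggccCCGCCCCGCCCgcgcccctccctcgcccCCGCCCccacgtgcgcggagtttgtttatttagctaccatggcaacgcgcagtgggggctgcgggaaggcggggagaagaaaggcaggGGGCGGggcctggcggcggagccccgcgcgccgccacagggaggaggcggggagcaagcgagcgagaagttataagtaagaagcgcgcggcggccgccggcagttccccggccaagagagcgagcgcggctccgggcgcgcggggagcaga
Klf9: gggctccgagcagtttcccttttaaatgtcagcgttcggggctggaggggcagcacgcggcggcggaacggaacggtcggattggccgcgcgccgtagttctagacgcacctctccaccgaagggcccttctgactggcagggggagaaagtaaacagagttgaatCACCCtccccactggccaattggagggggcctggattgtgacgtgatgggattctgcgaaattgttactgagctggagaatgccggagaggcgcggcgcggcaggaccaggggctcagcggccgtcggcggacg
Klf6: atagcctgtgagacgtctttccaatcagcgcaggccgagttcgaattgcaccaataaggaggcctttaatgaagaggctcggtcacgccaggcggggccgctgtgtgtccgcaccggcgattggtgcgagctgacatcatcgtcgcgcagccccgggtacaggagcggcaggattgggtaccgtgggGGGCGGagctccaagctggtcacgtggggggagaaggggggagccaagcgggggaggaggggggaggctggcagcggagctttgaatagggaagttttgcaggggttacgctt
Klf13: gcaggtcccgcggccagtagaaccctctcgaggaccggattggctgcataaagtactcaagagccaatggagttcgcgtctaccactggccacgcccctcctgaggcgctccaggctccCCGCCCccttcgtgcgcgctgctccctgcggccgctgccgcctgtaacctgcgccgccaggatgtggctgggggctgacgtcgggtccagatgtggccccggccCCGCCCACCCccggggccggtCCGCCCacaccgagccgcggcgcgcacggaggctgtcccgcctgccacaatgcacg

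Promoter sequences were found for 8 of the 10 members, and Klf5 and Klf10 are named without one. The 8 promoters were rich in G and C, at 58.3% to 76.7%, against a median of 53% over 32544 promoters of the same length. A GC box was present in 7 of the 8, all but Klf9, and in 35.9% of all promoters, and Klf4 held 4 GC boxes and Klf13 3. A CACCC element was present in 6 of the 8, not in Klf4 or Klf6, and in 57.7% of all promoters. The core of the cyclic AMP response element (TGACG), bound by CREB and ATF factors, was present in Klf2, Klf3, Klf4, Klf9, Klf13 and Klf15, and in 20.9% of all. An AP-1 site (TGANTCA) was present in Klf9 and in 7.79% of all, a Smad GC element (GGCGCC) in Klf3 and Klf15 and in 11.9% of all, and the core HIF site (ACGTG) in Klf4, Klf6, Klf9 and Klf15 and in 19.7% of all. No member promoter held a TATA box (TATAAA, 13.6% of all), a glucocorticoid receptor hexamer (AGAACA, 18.9% of all), an ATF4 composite element (TGATGNAA, 3.91% of all) or a CArG box (534 of the 32544). All motifs were searched on both strands. The motifs can overlap, as a CACCC element and a GC box do in the Klf13 promoter shown above.

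Without BMP-2, dynasore raised Klf4, Klf9, Klf5 and Klf6 and lowered Klf15. The call was made for 4 members upward and for 1 downward, beside 18% of all tested probes upward and 19.4% downward, so that a large part of the array moved with dynasore. The median change of the 10 members was 0.32 on the log2 scale, and that of all tested probes -0.003.

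**Figure D1:**
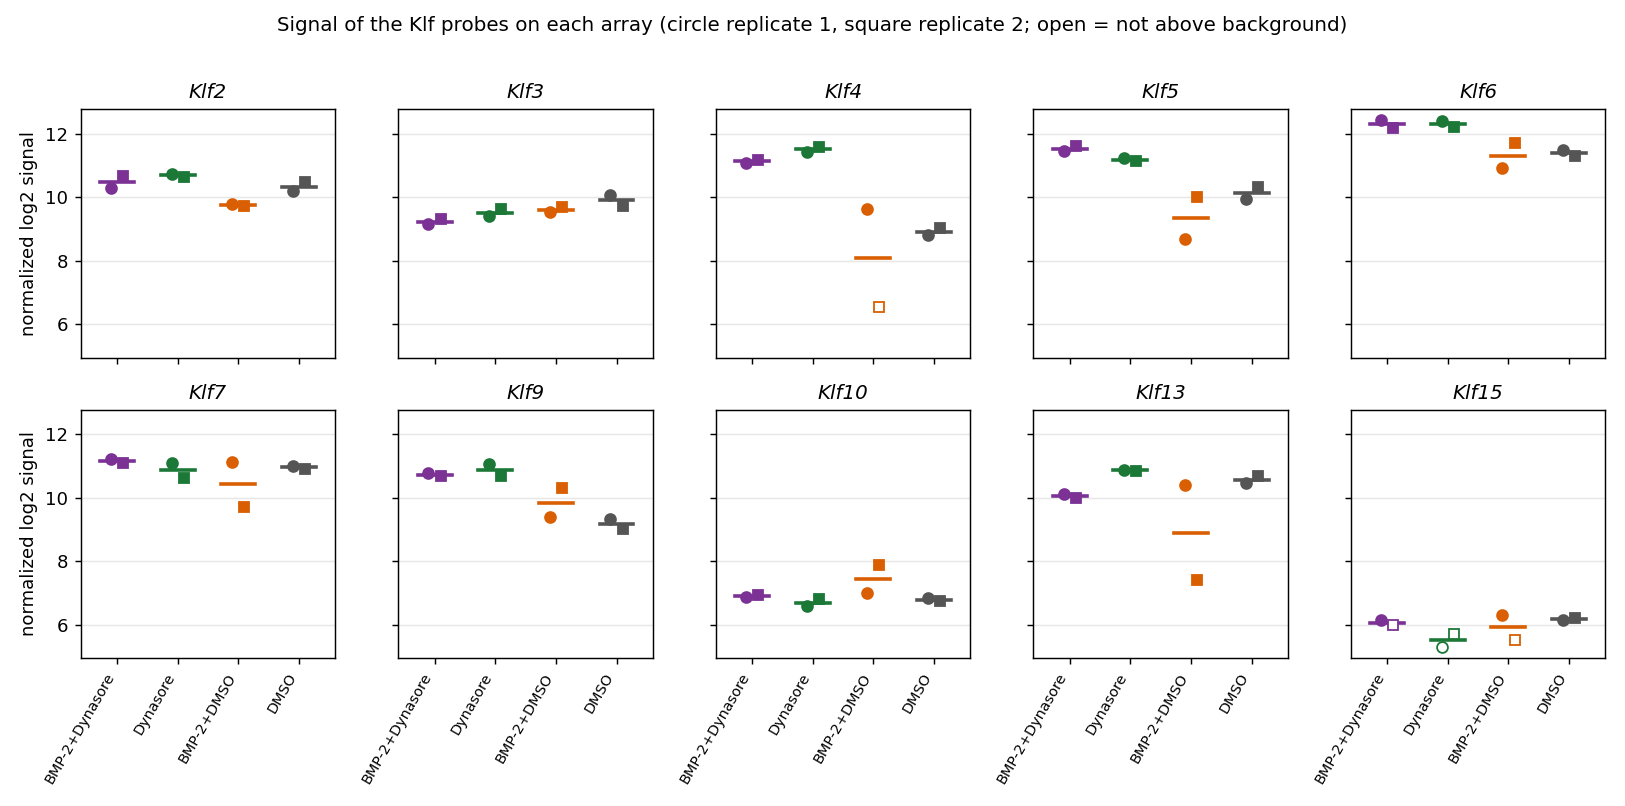
Normalized log2 signal of each Klf probe (vertical axis) on each array, by group from BMP-2+Dynasore to DMSO, with a line at the mean of the 2 arrays; open symbols are not above background. The 4 arrays with dynasore sit above both DMSO arrays for Klf4, Klf5, Klf6 and Klf9, and the BMP-2+DMSO arrays lie far apart for Klf4 and Klf13; heights are not compared between panels.

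Klf4, a factor that holds cells out of the cycle and is induced by stress and by ERK5, had log2 signals of 11.44 and 11.58 in Dynasore cells, against 8.80 and 9.01 in DMSO cells. The groups were far apart, with each duplicate close to its partner. The change was 2.61 ± 0.12 on the log2 scale (SE; 6.09-fold, adjusted p = 1.7e-07 in limma), with rank 69 by size among the 10232 tested probes. With BMP-2 present the level was nearly as high, at 11.09 and 11.19 in BMP-2+Dynasore cells, a change of 2.24 ± 0.12 against DMSO (4.71-fold, adjusted p = 4.6e-07). All 4 arrays with dynasore lay above the 4 without it.

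Klf9, a repressor known as a direct target of glucocorticoid and thyroid hormone receptors, had 11.07 and 10.70 in Dynasore cells, against 9.33 and 9.02 in DMSO cells. The change was 1.71 ± 0.15 (3.27-fold, adjusted p = 1.5e-05). In BMP-2+Dynasore cells it had 10.78 and 10.68, within the range of the Dynasore cells or just under it, and the change against DMSO was 1.56 ± 0.15 (2.94-fold, adjusted p = 2.6e-05). Both dynasore groups were clear of DMSO and overlapped each other.

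Klf5, which drives growth in epithelia and vascular smooth muscle, had 11.22 and 11.13 in Dynasore cells, against 9.93 and 10.32 in DMSO cells. The change was 1.05 ± 0.14 (2.07-fold, adjusted p = 2.0e-04). It was highest in BMP-2+Dynasore cells, at 11.45 and 11.62, a change of 1.41 ± 0.14 against DMSO (2.66-fold, adjusted p = 2.7e-05). The BMP-2+Dynasore arrays lay above the Dynasore arrays, yet the difference between those groups, 0.36 with a 95% confidence interval of 0.05 to 0.67, did not pass the adjusted threshold (adjusted p = 0.40).

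Klf6, an immediate early gene that is induced by growth factors and injury, had 12.41 and 12.23 in Dynasore cells, against 11.48 and 11.30 in DMSO cells. The change was 0.93 ± 0.12 (1.90-fold, adjusted p = 2.0e-04). BMP-2+Dynasore cells had 12.42 and 12.18, a change of 0.91 ± 0.12 against DMSO (adjusted p = 2.1e-04). The dynasore groups covered the same range, and the difference between BMP-2+Dynasore and Dynasore was -0.02, with a 95% confidence interval of -0.29 to 0.26.

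Klf15, a metabolic regulator of muscle, fat and liver, was dim throughout, at 5.30 and 5.71 in Dynasore cells, where it was not above background on either array, against 6.14 and 6.23 in DMSO cells. The fitted change was -0.68 ± 0.21 (adjusted p = 0.024), and because Dynasore gives a bound alone, the probe was at least 1.08-fold lower there. BMP-2+Dynasore cells had 6.16 and 5.98, the second not above background, and a change of -0.12 against DMSO (adjusted p = 0.70). The call on Klf15 in Dynasore cells was lost without DMSO replicate 1, without DMSO replicate 2 and without Dynasore replicate 1, and its adjusted p reached 0.32 with all 8 arrays.

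The other members were not called in Dynasore cells. Klf2, known for quiescence of endothelium and T cells, had 10.72 and 10.65 in Dynasore cells and 10.21 and 10.47 in DMSO cells (change 0.35 ± 0.15, adjusted p = 0.096). Klf13, first studied on the Ccl5 promoter of T cells, had 10.89 and 10.85 in Dynasore cells and 10.47 and 10.69 in DMSO cells (change 0.29 ± 0.12, adjusted p = 0.087). Both had higher arrays in Dynasore cells without passing the threshold, while Klf3 went the other way.

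Klf3, the basic Kruppel-like factor that recruits C-terminal binding protein, had 9.40 and 9.62 in Dynasore cells and 10.08 and 9.74 in DMSO cells (change -0.40 ± 0.15, adjusted p = 0.064). Klf7, best known in neurons, changed by -0.10 (95% confidence interval -0.43 to 0.24), and Klf10, the TGF-beta inducible early gene, by -0.09 (95% confidence interval -0.45 to 0.27). The Klf7 and Klf10 arrays of Dynasore and DMSO cells overlapped.

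**Figure D2:**
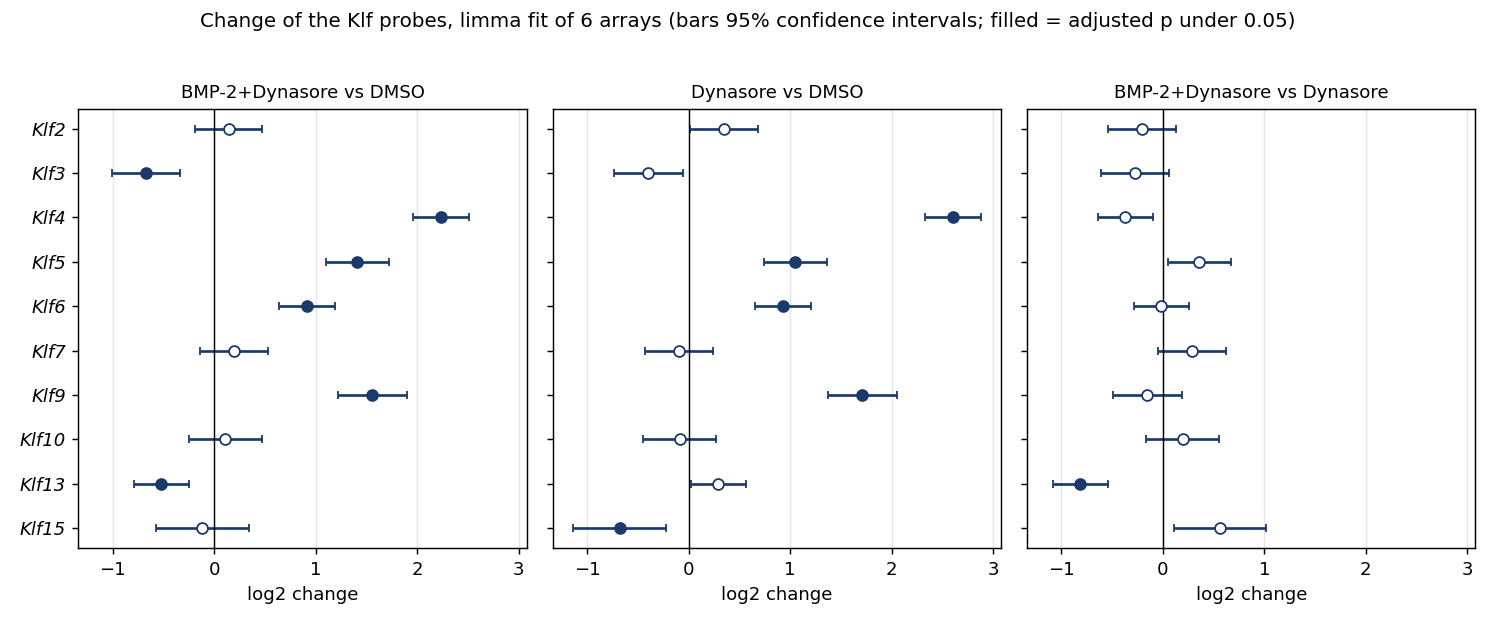
Log2 change of each Klf probe (horizontal axis, left group minus right group in each panel's title) with its 95% confidence interval in the limma fit of 6 arrays; filled points passed an adjusted p under 0.05. Klf4, Klf5, Klf6 and Klf9 lie far to the right of 0 in both comparisons with DMSO, and Klf13 alone is filled, at -0.82, between BMP-2+Dynasore and Dynasore.

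Compared with DMSO, BMP-2+Dynasore cells had the same 4 members higher as Dynasore cells, and Klf3 and Klf13 lower. The 2 comparisons share the DMSO arrays, so their likeness is not a separate result. The call covered 4 members upward and 2 downward, beside 19.6% of all tested probes upward and 18.9% downward. Klf3 had 9.15 and 9.32 in BMP-2+Dynasore cells, against 10.08 and 9.74 in DMSO cells, a change of -0.67 ± 0.15 (1.60-fold lower, adjusted p = 0.0051). It was lowest of all groups here. The call on Klf3 was lost without DMSO replicate 1 and in the methods' one-way test with either BMP-2+DMSO array. Klf13 had 10.12 and 9.99, against 10.47 and 10.69 in DMSO cells, a change of -0.52 ± 0.12 (1.44-fold lower, adjusted p = 0.0063), which was lost without DMSO replicate 2. Klf2, Klf7, Klf10 and Klf15 changed by -0.12 to 0.19 and were not called.

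These comparisons rest on the spread of the 6 arrays. When all 8 arrays were fitted together, the estimates stayed the same by construction and the standard errors grew with the gap within the BMP-2+DMSO pair, for Klf4 to 0.88. Then no member was called in limma in either comparison, although 4 members in Dynasore against DMSO and 5 in BMP-2+Dynasore against DMSO had an unadjusted p under 0.05, beside 1726 and 1783 of the 10232 tested probes. In that fit the called share of all probes was 1.67% upward and 1.54% downward in Dynasore cells, and 1.98% upward and 1.57% downward in BMP-2+Dynasore cells. Klf9 was nearest to the threshold, with an adjusted p of 0.052 in Dynasore and 0.064 in BMP-2+Dynasore cells.

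In the presence of dynasore, BMP-2 lowered Klf13 and moved no other member past the threshold. Klf13 had 10.12 and 9.99 in BMP-2+Dynasore cells, against 10.89 and 10.85 in Dynasore cells. The duplicates were tight and did not overlap, and the change was -0.82 ± 0.12 (1.76-fold lower, adjusted p = 0.0098). Few probes were called in this comparison, 0.625% of all upward and 0.225% downward. The call on Klf13 was lost without Dynasore replicate 1, without Dynasore replicate 2, with all 8 arrays (adjusted p up to 1.00), with arrays scaled to equal medians and in eBayes without trend and robust. The change itself stayed between -0.88 and -0.68 over all its alternatives.

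The other 9 members gave intervals that show how large a difference these arrays leave possible. For Klf4 the difference of BMP-2+Dynasore from Dynasore was -0.37 (95% confidence interval -0.64 to -0.10, adjusted p = 0.32), with both BMP-2+Dynasore arrays under both Dynasore arrays. For Klf15 it was 0.56 (0.11 to 1.02, adjusted p = 0.37), from arrays of which 3 were not above background. Klf2, Klf3, Klf7, Klf9 and Klf10 differed by -0.28 to 0.29. Over the same arrays Id1, Id2 and Id3 were all called higher in BMP-2+Dynasore than in Dynasore cells, by 2.37, 1.56 and 2.94.

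Without dynasore, BMP-2 gave no call on any member over all 8 arrays. In that limma fit 1 of the 10 members, Klf2, had an unadjusted p under 0.05, beside 755 of 10232 tested probes, and 0.156% of all probes were called higher and 0.0489% lower. Klf2 had 9.80 and 9.74 in BMP-2+DMSO cells, against 10.21 and 10.47 in DMSO cells, a change of -0.57 ± 0.22 (adjusted p = 0.49). Its BMP-2+DMSO arrays were the closest pair of any member and both lay under the DMSO arrays.

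The BMP-2+DMSO duplicates disagreed, in direction or in size of change, for several members. Klf4 had 9.64 on replicate 1 and 6.53 on replicate 2, where it was not above background, against 8.80 and 9.01 in DMSO cells. One array thus lay above DMSO and the other below it. Klf13 had 10.40 on replicate 1 and 7.40 on replicate 2, against 10.47 and 10.69 in DMSO cells. Replicate 1 was close to DMSO, and replicate 2 was the lowest Klf13 value of the experiment. On replicate 2 the deposited Klf13 intensity was 274, just over that array's background limit of 258.

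Klf5 had 8.69 and 9.99 on replicates 1 and 2, against 9.93 and 10.32 in DMSO cells. Klf9 had 9.39 and 10.31, against 9.33 and 9.02, and Klf10 had 6.99 and 7.87, against 6.83 and 6.74. For Klf9 and Klf10 the BMP-2+DMSO arrays were above both DMSO arrays, and the larger part of that difference lay on replicate 2. Klf6 had 10.92 and 11.70 against 11.48 and 11.30, and Klf7 had 11.14 and 9.72 against 11.02 and 10.93. Klf3 had 9.54 and 9.68, against 10.08 and 9.74, with both arrays lower. Klf15 had 6.32 and 5.51, the second not above background, against 6.14 and 6.23.

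**Figure D3:**
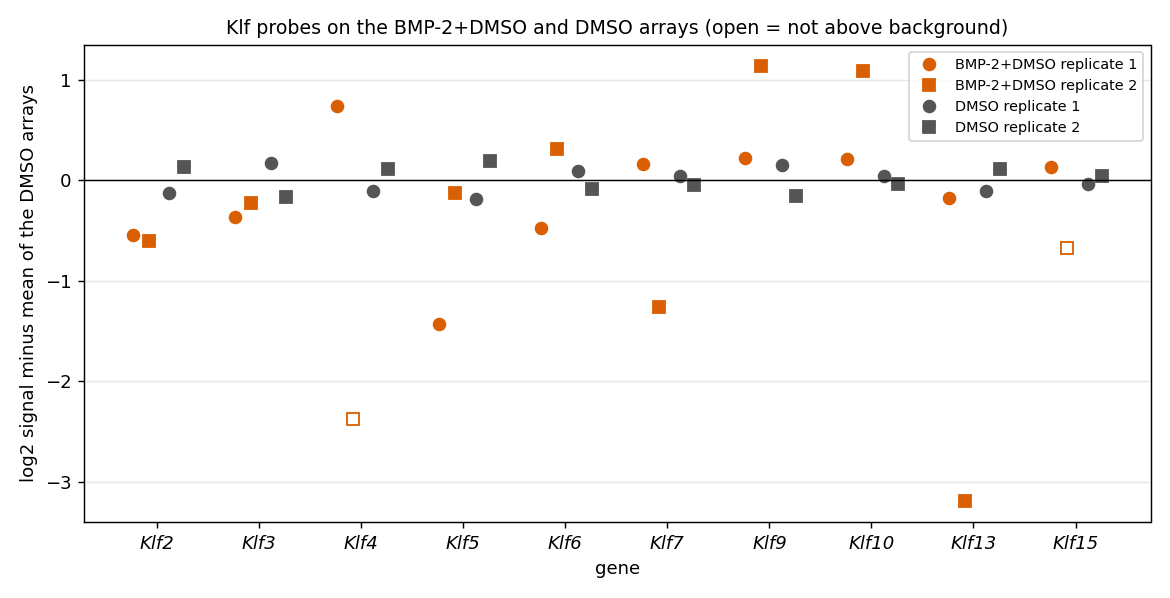
Log2 signal of each Klf probe minus the mean of the DMSO arrays (vertical axis) on the BMP-2+DMSO and the DMSO arrays, with circles for replicate 1, squares for replicate 2 and open symbols for values not above background. The DMSO duplicates stay near 0, while BMP-2+DMSO replicate 2 lies at -3.18 for Klf13 and replicate 1 at -1.43 for Klf5. The Klf13 value on BMP-2+DMSO replicate 2 is just over that array's background limit.

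Fitted with BMP-2+DMSO replicate 1 alone, whose spread is then assumed to be that of the other groups, Klf4 was 0.74 ± 0.15 higher (adjusted p = 0.019) and Klf5 lower (change -1.43 ± 0.17, adjusted p = 7.4e-04) than in DMSO cells, beside 2.06% of all probes higher and 2.54% lower. With replicate 2 alone, 2 members were called higher (Klf9 and Klf10) and 5 lower (Klf2, Klf4, Klf7, Klf13 and Klf15), beside 41.3% of all probes higher and 28.2% lower. On the normalized scale, Klf4 was at least 4.89-fold lower on replicate 2 than in DMSO cells. Its deposited intensities were 257 on replicate 2 and 489 and 553 in DMSO cells, so the size of that bound depends on the processing. For Klf15 the background of replicate 2 leaves no fold. No member was called in the same direction with each array, and Klf4 was called in opposite directions.

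With BMP-2 present in both groups, dynasore raised Klf5. It had 11.45 and 11.62 in BMP-2+Dynasore cells, against 8.69 and 9.99 in BMP-2+DMSO cells, a change of 2.19 ± 0.42 (4.57-fold, adjusted p = 0.044 over all 8 arrays), beside 1.75% of all probes called higher and 1.84% lower. The call was lost when any single array of the other 3 groups was left out (adjusted p up to 0.30). Klf4 (change 3.05 ± 0.88, adjusted p = 0.13), Klf6 (1.00 ± 0.28, adjusted p = 0.12), Klf9 (0.88 ± 0.34, adjusted p = 0.21) and Klf2 (0.71 ± 0.22, adjusted p = 0.15) had higher arrays throughout in BMP-2+Dynasore than in BMP-2+DMSO cells without passing the threshold. For Klf2 the difference was of similar size against each BMP-2+DMSO array.

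Against BMP-2+DMSO replicate 1 alone, Klf5 (2.84 ± 0.17), Klf4 (1.50 ± 0.15), Klf6 (1.38 ± 0.15), Klf9 (1.34 ± 0.19) and Klf2 (0.68 ± 0.18) were called higher in BMP-2+Dynasore cells and none lower, beside 15.5% of all probes higher and 13.5% lower. Against replicate 2 alone 6 members were higher (Klf2, Klf4, Klf5, Klf6, Klf7 and Klf13) and Klf10 was lower, beside 28.8% and 38.5% of all probes. The estimates for Klf2, Klf4, Klf5, Klf6, Klf7 and Klf9 were upward in both fits. Both fits use the same BMP-2+Dynasore arrays, and each has 1 BMP-2+DMSO array with no spread of its own. Their likeness is therefore not a separate result. On the normalized scale, Klf4 in BMP-2+Dynasore cells was at least 23.0-fold above replicate 2, where it was not above background. Its deposited intensities were 2195 and 2410 in BMP-2+Dynasore cells and 257 on replicate 2, so the size of that bound depends on the processing.

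The interaction sets the effect of BMP-2 under dynasore against its effect under DMSO (first minus second). It was called for no member and no probe over all 8 arrays (0% in each direction). In that limma fit 0 of 10 members and 229 of 10232 probes had an unadjusted p under 0.05. The largest estimates were 1.14 ± 0.59 for Klf5 (95% confidence interval -0.27 to 2.55) and 0.86 ± 1.21 for Klf13. With BMP-2+DMSO replicate 1 alone, the interaction was called for Klf5 (1.79 ± 0.22, adjusted p = 0.0057) and Klf4 (-1.11 ± 0.20, adjusted p = 0.028), beside 0.753% of all probes upward and 0.342% downward. With replicate 2 alone 6 members were called, Klf4, Klf7, Klf13 and Klf15 upward and Klf9 and Klf10 downward, beside 23.3% and 33% of all probes. The sign for Klf4 turned between the arrays.

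By mean signal, Klf2, Klf4, Klf6, Klf9 and Klf13 were highest in Dynasore cells, and Klf5 and Klf7 were highest in BMP-2+Dynasore cells. Neighbours in that order overlapped for Klf2, Klf6 and Klf9 in the dynasore groups. Klf3 and Klf15 were highest in DMSO cells. For Klf15, a dim probe, all neighbours in the order overlapped, and its highest single array was BMP-2+DMSO replicate 1 (6.32). Klf10 was highest in BMP-2+DMSO cells, where its arrays were also furthest apart.

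Of the 16 other Klf and Sp genes listed, 13 were on the array and 7 were tested, and in Dynasore against DMSO 2 rose and none fell, beside the 18% of all tested probes that rose and the 19.4% that fell. Sp1, a ubiquitous activator at GC boxes, had 7.51 and 7.30 in Dynasore cells against 6.60 and 6.41 in DMSO cells (change 0.90 ± 0.17, adjusted p = 0.0017). Klf16 had 8.70 and 8.94 in Dynasore cells against 8.25 and 7.97 in DMSO cells (change 0.71 ± 0.22, adjusted p = 0.027). Sp7, the osteoblast factor osterix, had 5.71 and 5.92 in BMP-2+Dynasore cells, 9.86 and 10.49 in BMP-2+DMSO cells and 5.53 and 6.06 in DMSO cells, and was above background in BMP-2+DMSO cells alone. Sp7 was at least 17.1-fold higher in BMP-2+DMSO than in DMSO cells (adjusted p = 0.014), on both of the arrays that disagreed for Klf4 and Klf13.

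Of the cofactors and ubiquitin ligases that act on Kruppel-like factors, 15 were tested, and 3 rose and 2 fell in Dynasore against DMSO, a share near that of all tested probes (18% up, 19.4% down). Sap30, a subunit of the Sin3 complex used by the repressor members, had the largest change (1.75 ± 0.10, adjusted p = 4.7e-07). Smurf1, a ubiquitin ligase also known for marking BMP-pathway Smads, changed by 1.69 ± 0.16 (adjusted p = 2.1e-05). Hdac1, a histone deacetylase of that complex, and Fhl3, a LIM protein that binds Klf3, each fell by 0.60 on the log2 scale (adjusted p = 0.0042 and 0.043). Over these 15 genes the median change was 0.07.

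Of the ERK5 and MEF2 genes, which lie upstream of Klf2 and Klf4, 6 were tested and 3 rose in Dynasore against DMSO, beside 18% of all tested probes, with a median over the 6 of 0.50. They were the kinases Map3k2 (0.99 ± 0.24, adjusted p = 0.0088) and Map3k3 (0.82 ± 0.15, adjusted p = 0.0016) and the factor Mef2a (0.64 ± 0.20, adjusted p = 0.026), and none was called lower. Map2k5 (change 0.37), Mef2d (-0.32) and Mapk7, the gene of ERK5 (-0.26), were not called. Mapk7 was not above background in Dynasore cells. Of the glucocorticoid receptor and its known targets, 6 were tested and 3 rose, beside the same 18%, with a median over the 6 of 0.66. Dusp1, a phosphatase of MAP kinases, had 12.87 and 12.60 in Dynasore cells against 10.18 and 10.19 in DMSO cells (change 2.55 ± 0.11, adjusted p = 9.3e-08), Per1, a clock gene, changed by 2.32 ± 0.12 and Sgk1, a kinase, by 1.14 ± 0.10. These 3 are also general early response genes. The receptor gene Nr3c1 changed by 0.02 ± 0.33 and the targets Tsc22d3 and Fkbp5 by 0.17 and -0.27, and none of these was called. The Nr3c1 probe was dim, with a mean of 6.21 in DMSO cells, and was not above background on either BMP-2+DMSO array.

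Of 26 genes known from other tissues as targets of Kruppel-like factors, 21 were tested, and 1 rose and 8 fell in Dynasore against DMSO, beside 18% of all tested probes up and 19.4% down, with a median of -0.20. The gene that rose was Cdkn1a, the cell cycle inhibitor that Klf4 and Klf6 activate (change 0.69 ± 0.10, adjusted p = 4.8e-04), named after its values were seen. Plau, the protease urokinase, had 5.86 and 6.41 in Dynasore cells, the first not above background, against 8.37 and 8.66 in DMSO cells (change -2.38 ± 0.31, adjusted p = 6.3e-04). Tgfbr2, a receptor of TGF-beta, fell by 1.43 on the log2 scale (adjusted p = 6.6e-06) and Ccnd1, a cyclin of G1, by 0.91 (adjusted p = 7.8e-04). Thbd, which Klf2 and Klf4 activate in endothelium, was at least 1.75-fold lower in Dynasore cells, where it was not above background. Of the 4 tested myoblast markers all 4 fell, Myod1 by 1.70 on the log2 scale, and their part in the changes of the factors was not tested.

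The probes most like that of Klf4 over the 8 arrays, among the 6294 above background on all of them, were those of Tram1 (Pearson r = 0.995), Cdc27 (0.994) and Srm (0.994). Klf15 was most like Prrx1 (0.906), Eola1 (0.905) and Pdcd5 (0.889), but it was not above background on 4 of the 8 arrays. The 8 arrays share 4 treatments and BMP-2+DMSO replicate 2, so these values describe a common pattern over few points. Without that array they were 0.990, 0.989 and 0.989 for the probes like Klf4, and 0.890, 0.898 and 0.862 for those like Klf15.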

How the data were processed

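The authors hybridized labelled RNA of each sample to a BeadChip and normalized its signals in BeadStudio 3.0 (rank invariant method). The deposited values are intensities per probe on a linear scale, some below 0 on 6 arrays, and they were read from the table of 18138 probes whose columns name the samples. A second table, of signals before normalization with detection p-values, has numbered columns that no label ties to a sample and was not used. Whether background was subtracted is not given in the sources used here. Genome build: not given in the sources used here.

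In R 4.3.3 with limma 3.58.1, intensities were corrected by normexp (offset 16), quantile normalized across all 8 arrays and log2 transformed. Since detection p-values were not used, the background limit of each array was set 1.645 SD above the most frequent intensity of its dim probes, and 10232 probes over that limit on at least 2 arrays were tested. Groups were fitted with lmFit and eBayes (trend and robust), on 6 arrays (3 residual degrees of freedom) or on 8 (4), with Benjamini-Hochberg adjustment over all tested probes. Where a probe was not above background on any array of a group, a bound is given: the bright group's mean against, per array of the dim group, the higher of the lowest signal above background and the probe's own. Symbols come from the annotation supplied with the arrays, which names no gene for 1252 probes. Promoters are those of RefSeq (GRCm38.p6). The number of arrays limits the precision, and no read depth applies.

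Every member was named. Of each gene list up to 4 called genes with the largest change in the comparison described were named (Cdkn1a besides, after its values were seen), and a gene with several probes was represented by the brightest. The tested genes without a call in the ERK5 and MEF2 list and in the glucocorticoid list were also named, after their values were seen. Myod1 and the Id genes were named as checks. The members and lists were chosen with earlier results of these data known. The fit was tested on simulated data. Alternatives varied the arrays used, the normexp step, the scaling, the filter on dim probes, the variance model and the kind of test, with a replicate block and omission of single arrays besides.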

Additional observations from a re-analysis of the deposited data

How the results depend on the processing

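Over the 13 changes of members that were called, 225 alternatives were computed, of which 196 kept the call, 29 kept the direction without it and 0 turned the direction. The choice of arrays had the largest effect: with all 8 arrays no member was called in Dynasore against DMSO (0, from 5), BMP-2+Dynasore against Dynasore (0, from 1) or BMP-2+Dynasore against DMSO (0, from 6). BMP-2+Dynasore against Dynasore also gave 0 with equal medians and 0 in eBayes without trend and robust. The authors' values with no further normalization gave 3 members (Klf5, Klf6 and Klf9) in BMP-2+Dynasore against BMP-2+DMSO, where quantile normalized values gave 1, and 4 members higher and 2 lower (Klf3 added) in Dynasore against DMSO, where quantile normalized values gave 4 and 1. On that scale the median of all tested probes was -0.10 in Dynasore and -0.16 in BMP-2+Dynasore against DMSO, -0.28 in BMP-2+DMSO against DMSO and 0.18 in BMP-2+Dynasore against BMP-2+DMSO. The methods' one-way test, at a fold of 1.4, gave 3 members with either BMP-2+DMSO array in Dynasore against DMSO, 2 and 4 with replicates 1 and 2 in BMP-2+DMSO against DMSO (0 in limma), and 3 and 6 in BMP-2+Dynasore against BMP-2+DMSO. It measured 8 members and leaves out Klf4 and Klf15, which were not above background on 1 and 4 arrays. The cause of these differences was not tested. Leaving out 1 array at a time gave 4 to 8 members in Dynasore against DMSO (8 without either BMP-2+Dynasore array), 0 to 1 in BMP-2+Dynasore against Dynasore, 5 to 6 in BMP-2+Dynasore against DMSO, 0 to 7 in BMP-2+DMSO against DMSO, 0 to 7 in BMP-2+Dynasore against BMP-2+DMSO and 0 to 6 for the interaction, and the highest counts of the last 3 came without BMP-2+DMSO replicate 1.

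The replicate block changed no count of called members, which were 5, 1, 6, 0, 1 and 0 in the order of the comparisons above. Arrays with the same number deviated together in BMP-2+Dynasore and BMP-2+DMSO (r of deviations 0.50), but not in the other 5 pairs of groups (-0.28 to 0.003), so not every pair was over 0.1 and the numbers were not taken to pair the arrays.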
